A study of Mus musculus with 4 samples.

Results

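The population called gdT_TypeI by the authors, type I gamma delta T cells, was described through the 145 genes listed for it in a table that compared each of 21 annotated cell types with all other sorted cells. Within the table the genes were taken by the authors' cluster name, and they made up 145 of the 1679 genes listed for any cell type, or 8.64%. One gene in 1 cell type is called a listing here, and the table held 4422 of them. Cells were sorted from liver and lung of wild type BALB/c male mice, 8 weeks old, given intraperitoneal PBS, or recombinant IL-33 (rIL-33) at 0.5 µg, on each of 5 days. The 4 groups (PBS liver, rIL-33 liver, PBS lung and rIL-33 lung) had 1 library each, made from tissue pooled from 2 to 6 mice, so there was no replicate. The sort was meant for group 2 innate lymphoid cells (ILC2s), lymphocytes without antigen receptors, and kept CD127+ Thy1+ ST2+ cells that were negative for lineage markers, among them CD3e, TCRb and Ly6c. All values come from the 4 libraries pooled by the authors. Treatment and organ were therefore not compared, and the tables give neither sequencing depth nor the number of cells behind a share.

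Gamma delta T cells carry a T cell receptor built from a gamma and a delta chain and respond quickly, much like innate lymphocytes. Type I cells are the interferon gamma producing branch: they typically keep CD27, carry the IL-2 receptor beta chain and natural killer (NK) receptors, and use T-box transcription factors. The type 3 branch instead makes IL-17. Gamma delta T cells are well known residents of both liver and lung.

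For each listing the table holds what percentage of cells had a value above 0, once within the type and once over all other cells. These shares were not plain detection rates in raw counts. If the cells of the separate ILC2 subcluster table were those named ILC2 and ILC2_2, which held 45.0% of all cells, *Cd3e* had a value above 0 in 5.76% of ILC2s there. At most 57.6% of all cells could then have *Cd3e*, yet the cell type table gave 83.5%. In the same way 43 of the 86 gdT_TypeI genes present in both tables exceeded the possible share. The assay behind the cell type table was not stated, and its values may be batch-integrated, so these percentages, called shares below, are not read as expression. A listing rests on the authors' comparison of averages, whose values were not used here, and a lower share can therefore stand beside a listing. A gene that was not listed was lower, unchanged, too rare or not tested, which cannot be told apart.

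The promoters of 3 genes are shown because they represent the marker, CD3 and chemokine genes described next, and they were chosen after motif matches were seen. Each runs from 250 bases before to 50 bases after a transcription start (RefSeq, GRCm38.p6), 5′ to 3′ on the strand of the gene. Capitals mark the T-box letters GGTGTGA, the RUNX letters TGTGGTT or the ETS letters GGAAGTG on either strand. The windows are chr7:43436888-43437187 (plus strand) for *Nkg7*, chr9:45009562-45009861 (minus strand) for *Cd3e* and chr1:164935473-164935772 (minus strand) for *Xcl1*.
Nkg7: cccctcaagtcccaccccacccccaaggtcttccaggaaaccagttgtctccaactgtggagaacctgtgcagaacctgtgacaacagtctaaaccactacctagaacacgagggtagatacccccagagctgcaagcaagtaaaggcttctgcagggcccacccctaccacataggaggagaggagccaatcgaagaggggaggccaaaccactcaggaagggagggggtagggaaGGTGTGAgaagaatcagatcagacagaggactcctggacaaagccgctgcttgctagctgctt
Cd3e: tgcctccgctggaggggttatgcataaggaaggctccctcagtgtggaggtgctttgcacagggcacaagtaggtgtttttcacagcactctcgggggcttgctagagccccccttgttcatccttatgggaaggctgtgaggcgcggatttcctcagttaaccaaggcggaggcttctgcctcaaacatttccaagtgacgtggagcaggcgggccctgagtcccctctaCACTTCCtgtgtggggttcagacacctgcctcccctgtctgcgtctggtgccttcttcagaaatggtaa
Xcl1: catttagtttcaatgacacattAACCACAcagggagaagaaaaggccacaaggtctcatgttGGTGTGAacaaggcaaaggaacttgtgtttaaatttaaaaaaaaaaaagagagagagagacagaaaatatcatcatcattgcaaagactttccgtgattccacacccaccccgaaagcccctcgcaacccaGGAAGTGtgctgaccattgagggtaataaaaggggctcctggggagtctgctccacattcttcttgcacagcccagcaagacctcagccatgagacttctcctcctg

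Of the 145 genes, 110 had a RefSeq promoter, in 154 windows. The T-box letters were found in 13 of these windows (8.44%) and in 3.98% of all 32851 windows of this length. RUNX letters occurred in 14 windows (9.09%, against 5.27% of all), and ETS letters in 19 (12.3%, against 11.0%). Matches of different motifs overlapped in 6 of all windows. *Xcl1*, which encodes the chemokine lymphotactin, had all 3 motifs, and *Nkg7* had the T-box letters only. A match describes the sequence and is not a binding site.

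The size of gdT_TypeI was solved from the shares, since the share in all cells must be the same whichever type lists a gene. The type held 11.7% ± 0.026 of the sorted cells (SE of a least squares fit over 1045 genes listed for at least 2 types). This error covers the rounding of the shares, not variation between animals. It ranked 2 of 21 types in size and made up 53.2% of the cells of the 5 types named gdT, ahead of gdT_Naive, which held 6.08% of all cells. When each of 12 other types was paired with it alone, the solved size stayed between 11.5% and 12.0%.

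The 4 markers that came with the label were all listed. *Nkg7*, which encodes a cytotoxic granule membrane protein, had a value above 0 in 97.2% of gdT_TypeI cells and 76.3% of other cells. *Il2rb*, the receptor chain shared by IL-2 and IL-15 (GRCm38 chromosome 15, 78479256 to 78495271), had 96.7% and 75.8%. *Ccl5*, a chemokine of effector lymphocytes (chromosome 11, 83525778 to 83530518), had 96.5% and 80.0%, and the surface protein gene *Ms4a4b* (chromosome 19, 11443553 to 11467055) had 99.8% and 85.8%. None of the 4 was particular to the type. NK cells exceeded it for each: 100% for *Nkg7* and *Ms4a4b*, 99.6% for *Ccl5* and 99.3% for *Il2rb*. ILC1 cells exceeded it for *Nkg7* (99.6%), *Ccl5* (99.1%) and *Il2rb* (98.1%). In the types that did not list a marker, as 1 pool, the solved shares were still 71.3% for *Nkg7*, 73.0% for *Il2rb*, 77.8% for *Ccl5* and 81.0% for *Ms4a4b*.

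The markers of other lineages were checked in the same way. Of 7 gamma delta and CD3 markers, 6 were listed and *Tcrg-C1* was not. Of 6 alpha beta T cell markers 3 were listed, the constant region genes *Trac*, *Trbc1* and *Trbc2*, whereas the coreceptor genes *Cd4*, *Cd8a* and *Cd8b1* were not. Among NK markers only *Eomes* was listed, and *Ncr1* and *Klrb1c* were not. Type 17, ILC2, B cell and myeloid markers contributed 0 listed genes, of 3, 4, 3 and 1 on any list. Over all genes 8.64% were listed. The name gdT_TypeI is used here as the authors' annotation. These markers do not test it, because the listings are what defined the genes, the 3 CD3 chains were each listed for 9 types, and *Tcrg-C2* differed from other cells by 1.2 points. The part of other cell types in the listings was not tested.

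Across the 145 genes the share of cells was higher in gdT_TypeI for 104 (71.7%), lower for 40 (27.6%) and equal for 1. Over all 4422 listings the share was above that of other cells in 83.6% and below it in 16.3%. Shares inside the type ran from 22.5% to 99.8% with a median of 73.8%, and shares outside from 37.1% to 94.0% with a median of 67.9%. The median difference was 5.5 percentage points, against 18.4 over all listings, and 6 types had a lower median. A difference of at least 10 points was reached by 40 genes (27.6%, against 65.5% of all listings) and one of at least 25 points by 1 gene, *Gimap7* (40.1% of all listings). The genes of gdT_TypeI thus stood less far from the other cells in share than those of most types. Listings with a lower share were also frequent for gdT_Naive (74.5%) and CD4 (76.3%), and rarer for NK (11.2%).

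**Figure D1:**
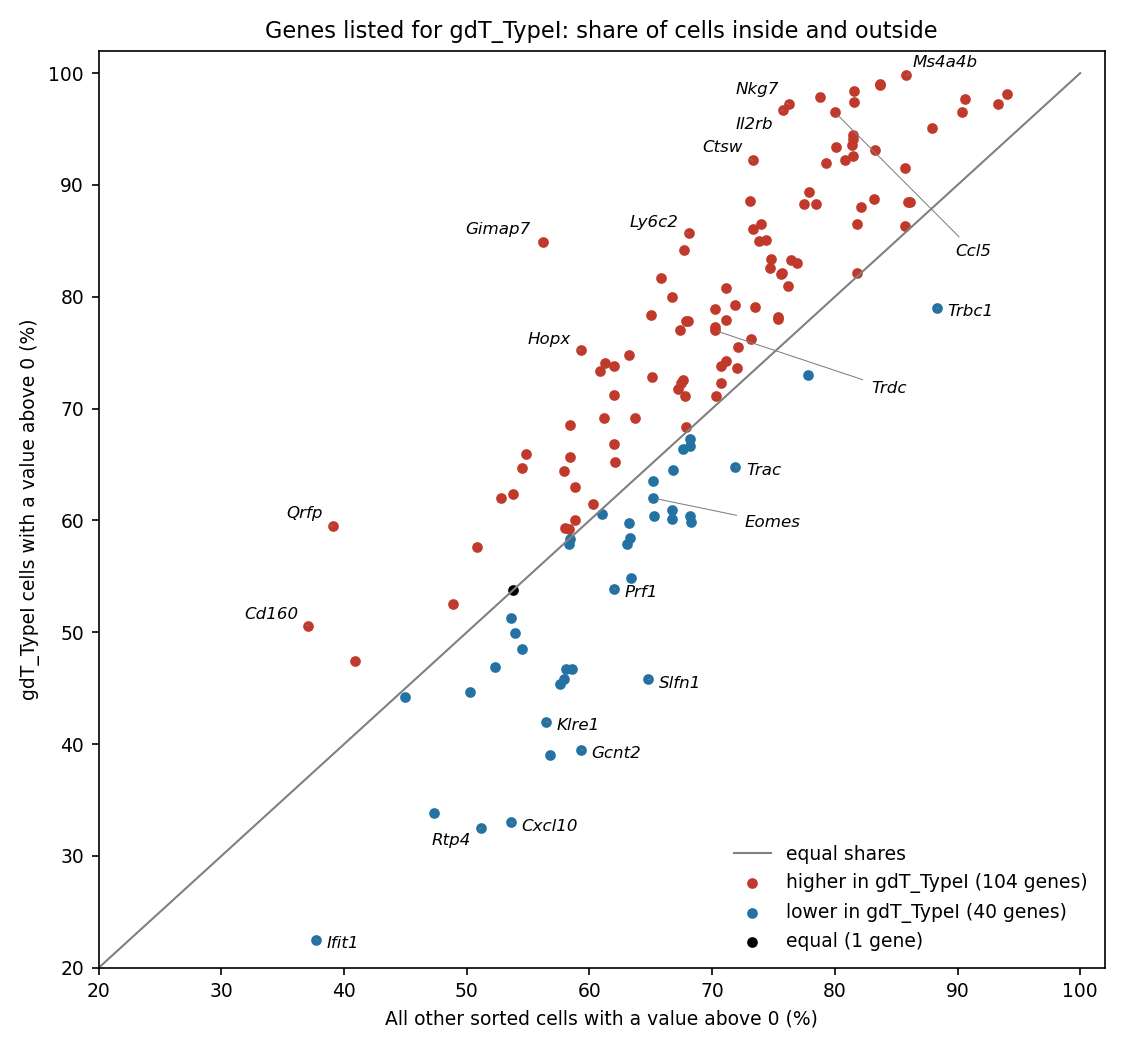
Percentage of cells above 0 for each of the 145 listed genes, in gdT_TypeI cells (vertical axis, %) and in all other sorted cells (horizontal axis, %), with 1 point per gene and 4 libraries pooled. Points above the line of equal shares are 104 genes, points below it are 40, and *Gimap7* lies farthest above at 84.9% against 56.2%.

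Genes of the T cell receptor and CD3 complex were the most completely listed group: 12 of the 15 on any list (80.0%, against 8.64% of all genes). The share was higher in 10 of them and lower in 1, with a median difference of 9.1 points. The CD3 chains, which carry the receptor signal into the cell, had a value above 0 in nearly every gdT_TypeI cell. *Cd3d* had 98.4% against 81.6% in other cells, *Cd3e* 97.4% against 81.6% and *Cd3g* 98.9% against 83.7%. These 3 genes lie together on chromosome 9 between 44969572 and 45009627. The sort had gated out CD3e-positive cells.

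The receptor chains themselves separated the type less than CD3 did. *Trdc*, the delta constant region (chromosome 14, 54142851 to 54148868), had a value above 0 in 77.0% of gdT_TypeI cells and 70.2% of other cells. It was higher in the 3 other types that listed it, at 99.3% in gdT_TypeIII_CD163l1, 96.7% in gdT_TypeIII_ITGAE and 96.4% in gdT_Naive, and the types that did not list it had a solved share of 67.3%. gdT_TypeI was thus nearer to the cells that did not list *Trdc* than to the other gamma delta types that did. *Tcrg-C4*, a gamma constant region, was listed for only gdT_TypeI (64.4%) and gdT_Naive (62.4%). *Tcrg-C2* had 61.5% against 60.3% of other cells, and gamma constant regions are similar enough in sequence that its reads may be split with another, such as the unlisted *Tcrg-C1*. The variable segment *Trgv2* had 53.8% on both sides. The 3 gamma genes lie within 48.1 kb on chromosome 13.

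Alpha beta receptor genes were also listed. *Trac* had a value above 0 in 64.8% of gdT_TypeI cells, below the 71.9% of other cells and below CD4 (87.8%), Treg (87.3%), CD8_Naive (91.2%) and CD8_Effector (93.6%). *Trbc1* had 79.0% against 88.3%, just below CD8_Effector (79.3%) but above CD8_Naive (77.9%), CD4 (74.7%) and Treg (74.0%). *Trbc2* had 97.7% against 90.6%, below CD8_Naive (99.3%) and CD4 (98.1%) and above Treg (97.2%) and CD8_Effector (96.6%). The beta constant regions are similar in sequence, so their reads may be partly shared, which was not tested. Of the 12 alpha beta T cell genes, the other 9, among them *Foxp3*, *Icos* and *Cd40lg*, were not listed.

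Signalling and surface genes of the same list were mixed. The kinase gene *Lck* had 92.0% against 79.3%, *Cd2*, an adhesion receptor, 94.1% against 81.5%, and the costimulatory receptor *Cd28* 92.2% against 80.8%. *Cd28* was higher in gdT_TypeI than in the other 6 types that listed it, the nearest being CD4 at 91.7%. *Thy1*, which the sort required, had 88.5% against 86.1%, and *Cd6*, a receptor of conventional T cells, 60.9% against 66.7%.

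**Figure D2:**
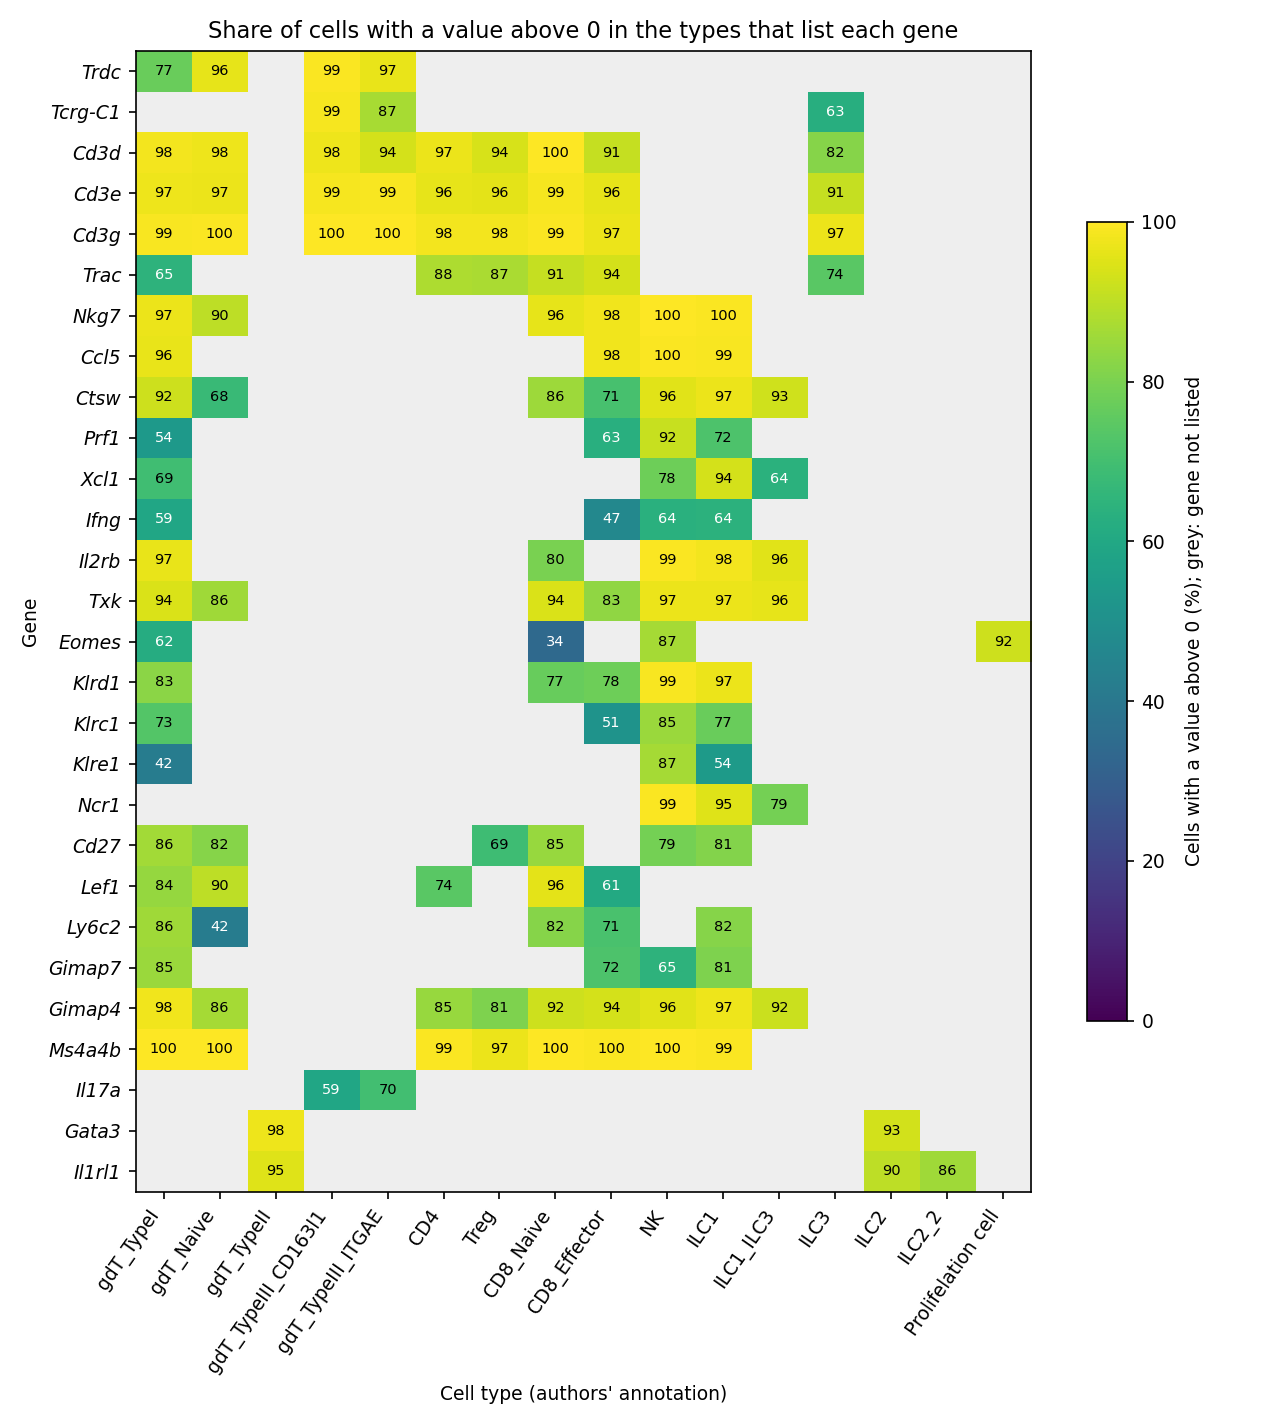
Share of cells with a value above 0 (colour and number, %) for 28 genes (rows) in 16 annotated cell types (columns), shown only where the type lists the gene, with grey for no listing. The column of gdT_TypeI holds CD3 genes near 98%, *Trdc* at 77.0%, cytotoxic and NK receptor genes, and no value for *Tcrg-C1*, *Ncr1*, *Il17a*, *Gata3* or *Il1rl1*.

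Cytotoxic effector and chemokine genes were the next most listed group, with 10 of 17 (58.8%), of which 9 had a higher share (median difference 8.8 points). *Ctsw*, a cathepsin of cytotoxic lymphocytes, had 92.2% against 73.3%. *Serpinb9* and *Serpinb6b*, protease inhibitors that lie within 52.7 kb on chromosome 13, had 77.0% against 67.4% and 80.0% against 66.7%. The death ligand gene *Fasl* had 72.6% against 67.6%, and *Xcl1* 69.2% against 61.2%, below the 93.7% of ILC1 and 78.1% of NK.

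Genes of the classic effector molecules were not uniformly higher. *Ifng*, the defining cytokine of the type 1 branch, had a value above 0 in 59.2% of gdT_TypeI cells and 58.3% of other cells. It was higher in ILC1 (64.4%) and NK (63.6%). *Prf1*, the pore-forming protein perforin, had 53.9%, below the 62.0% of other cells and the 91.5% of NK. *Gzmm*, granzyme M, was listed for no other type and had 60.0% against 58.8%. Granzymes *Gzma*, *Gzmb* and *Gzmk* and the chemokines *Ccl3* and *Ccl4* were not listed for gdT_TypeI.

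NK receptor genes were listed in 8 of 18 cases (44.4%), 6 with a higher share. Most encode lectin-like receptors of the NK gene complex on chromosome 6, where *Klre1*, *Klrd1*, *Klrk1*, *Klrc2* and *Klrc1* lie between 129577905 and 129678973. *Klrd1*, the CD94 chain that pairs with NKG2 proteins, had 82.6% against 74.7%. Its partners *Klrc1* and *Klrc2* had 73.4% against 60.9% and 78.4% against 65.0%. Their sequences are similar, so reads may be partly shared, which was not tested. *Klrk1*, the activating receptor NKG2D, had 73.8% against 70.7%. NK and ILC1 were higher than gdT_TypeI for *Klrd1* (99.1% and 97.2%), *Klrc1* (85.1% and 77.0%), *Klrc2* (87.1% and 81.6%) and *Klrk1* (95.1% and 97.2%). Neighbouring genes differed in direction: *Klre1* had 42.0% against 56.5%, and of the similar Ly49 genes *Klra3* had 46.7% against 58.6% and *Klra1* 52.5% against 48.9%. *Cd160*, a receptor outside this complex, had 50.6% against 37.1%, between ILC1 (64.4%) and NK (48.2%). The NK adapter genes *Fcer1g* and *Tyrobp* were not listed.

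Regulators and cytokine receptors of type 1 lymphocytes were listed in 7 of 14 cases (50.0%, median difference 13.0 points). The group was led by *Il2rb* and by *Hopx*, a homeodomain protein of effector T cells, with 75.2% against 59.3%. *Dusp2*, a phosphatase of activated lymphocytes, had 88.6% against 73.1%, and the Tec family kinase gene *Txk* 94.5% against 81.5%. *Il18r1*, a chain of the IL-18 receptor, had 79.1% against 73.5%, the lowest of the 8 types that listed it (gdT_TypeIII_ITGAE had 97.4%), and *Il21r* 63.5% against 65.2%. The T-box factor gene *Eomes* had 62.0%, below the 65.2% of other cells and the 86.7% of NK. The other T-box gene, *Tbx21*, was not listed.

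Circulation and homing genes were listed in 12 of 23 cases (52.2%), 10 with a higher share (median difference 9.2 points). *Cd27*, the receptor that marks the type I branch, had 86.1% against 73.3%, first of the 6 types that listed it (CD8_Naive had 84.7% and gdT_Naive 81.8%). Several genes of naive and recirculating T cells were in this group. *Lef1* and *Tcf7*, partner transcription factors of naive T cells, had 84.2% against 67.7% and 88.3% against 77.5%. *Klf2*, which promotes exit from tissues, had 99.0% against 83.7%. For *Lef1* the type came after CD8_Naive (95.9%) and gdT_Naive (89.9%), and for *Tcf7* it was the lowest of the 6 types that listed the gene (CD4 had 91.3%).

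Genes of effector and memory lymphocytes stood beside them. *Ly6c2* had 85.7% against 68.1%, and its near copy *Ly6c1*, which may share its reads (not tested), had 74.8% against 63.2%. *Ly6c2* had only 42.0% in gdT_Naive, so both gamma delta types that listed it were far apart, and the sort had excluded Ly6c-positive cells. The chemokine receptor genes *Cxcr3* and *Cxcr4* had 72.8% against 65.1% and 91.5% against 85.7%. Of the integrins, *Itga4* had 78.2% against 75.4% and the residency-associated *Itga1* 48.5% against 54.5%. Other circulation or residency genes (*S1pr1*, *Ccr7*, *Cxcr6*, *Cd69* and *Itgae*) were not listed.

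GIMAP and MS4A genes, which encode small GTPases of lymphocyte survival and tetraspan membrane proteins, gave 4 listed genes of 8 (50.0%), all with a share at least 10 points higher and a median difference of 16.6. *Gimap7* (chromosome 6, 48718621 to 48724636) had 84.9% against 56.2%, the widest difference of all 145 genes. It was also listed for ILC1 (80.6%), CD8_Effector (71.9%) and NK (64.8%), and gdT_TypeI alone held 16.7% of all cells with a value above 0 for it. *Gimap4*, which lies with *Gimap7* within 40.1 kb, had 97.9% against 78.8% and was highest in gdT_TypeI among the 9 types that listed it. *Ms4a6b*, near *Ms4a4b* on chromosome 19, had 92.6% against 81.5%.

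**Figure D3:**
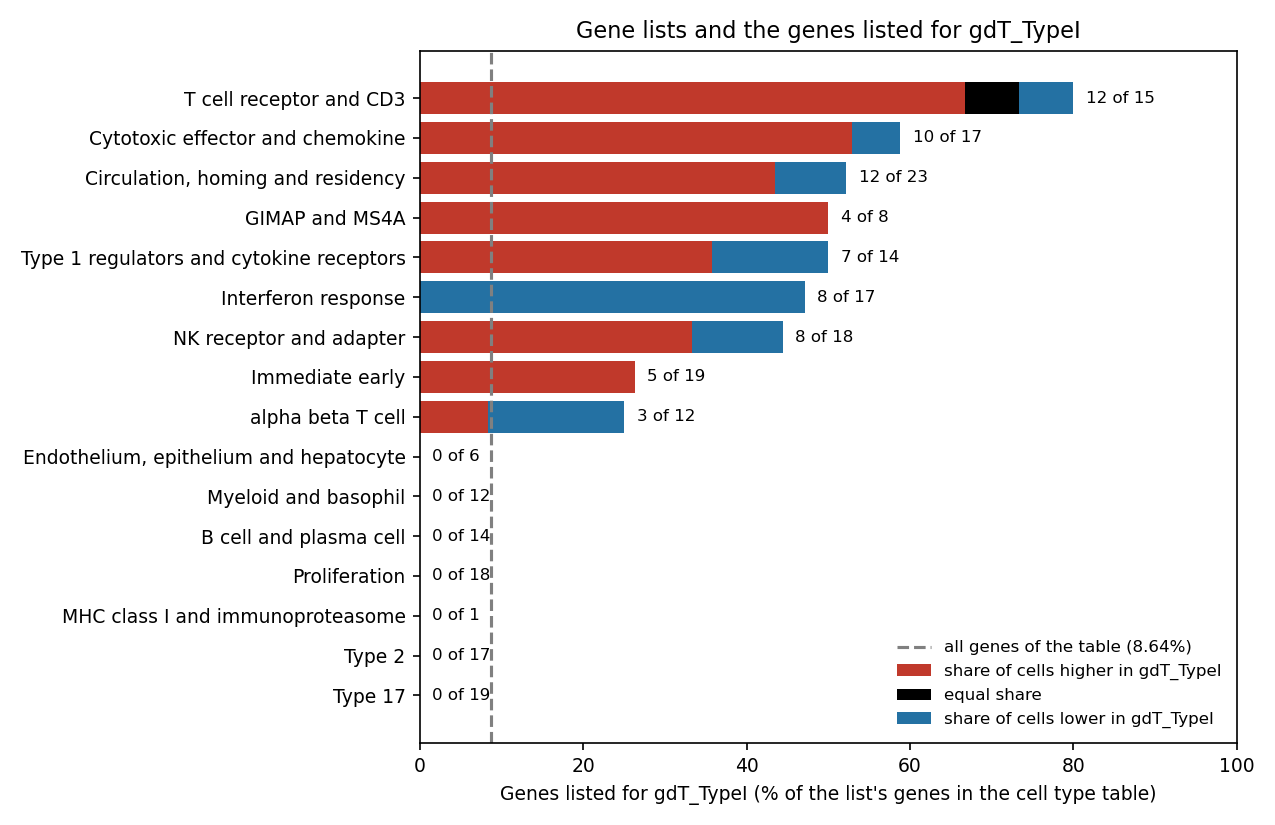
Bars give, for 16 gene lists, the percent of the list's genes on the cell type table that were listed for gdT_TypeI, split by whether the share of cells was higher (red), equal (black) or lower (blue) than in other cells. The dashed line is 8.64%, the value over all genes; T cell receptor and CD3 genes reach 80.0%, and 7 lists have 0 listed genes.

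Interferon response genes formed a group listed entirely with lower shares. Of 17 on any list 8 were listed (47.1%), with 0 higher and 8 lower and a median difference of -10.3 points. *Ifit1*, an antiviral protein gene (chromosome 19, 34640871 to 34650009), had 22.5% against 37.7% and was listed for no other type, as was *Rtp4* with 32.5% against 51.2%. *Slfn1*, a Schlafen gene of T cell quiescence, had 45.8% against 64.8%. The transcription factor genes *Irf7* and *Irf1* had 45.4% against 57.6% and 66.7% against 68.2%. The remaining members *Ly6e*, *Gbp4* and *Igtp* had shares of 54.9%, 60.1% and 44.7% against 63.4%, 66.7% and 50.3%. The chemokine gene *Cxcl10*, which is also interferon-inducible, had the lowest difference of the 145, with 33.0% against 53.6%. In each of these cases fewer cells had a value above 0 than among other cells although the gene was listed.

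Immediate early genes, which can rise when cells are dissociated, were listed in 5 of 19 cases (26.3%), with a median difference of 3.9 points and none at 10 points. *Dusp5* had 93.1% against 83.3%, and *Btg2*, *Ier2*, *Fosl2* and *Ier5* differed by at most 4.1 points. Their part in the other results was not tested. Type 17 genes (0 of 19, including *Il17a* and *Blk*), type 2 genes (0 of 17, including *Gata3* and *Il1rl1*, which encodes the ST2 the sort required) and proliferation genes (0 of 18) were not listed. The lists of B cells (0 of 14), myeloid cells and basophils (0 of 12), endothelium, epithelium and hepatocytes (0 of 6) and MHC class I (0 of 1) were likewise without a listed gene. Over all genes 8.64% were listed. A count of 0 in lists this small is near that share and does not mark a lineage as absent.

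Of the 145 genes, 5 were listed for gdT_TypeI alone (3.45%), whereas 14.3% of all listings were of genes listed for no other type. These were *Klra1*, *Gzmm*, *Ifit1*, *Rtp4* and *Crtam*, a receptor gene of cytotoxic T cells with 57.9% against 58.3%. The other 140 were listed for at least 1 further type, with at most 10 types per gene. The median over the 145 was 6 types, against 4 over all listings. Among the listing types, gdT_TypeI had the highest share for 13 of the 140 (9.29%) and the lowest for 28 (20%). Over all listings of genes shared by types, 27.6% were the highest and as many the lowest. The gdT_TypeI genes had more types per gene, which by itself lowers both shares. The 27.6% is therefore not a like baseline for either count. The part of all cells with a value above 0 that belonged to gdT_TypeI ran from 7.34% for *Ifit1* to 16.8% for *Qrfp*, with a median of 12.5%, where the size of the type alone gives 11.7%. *Qrfp*, a neuropeptide gene, had 59.5% against 39.1% of other cells and was otherwise listed only for ILC1 (73.0%) and NK (72.1%). For *Nkg7* the part was 14.5%, for *Ccl5* 13.8% and for *Trdc* 12.7%.

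Side by side with the most similar types, the shares of gdT_TypeI were mostly below NK and ILC1 and mostly above gdT_Naive and both CD8 types. These comparisons share cells, cover only genes listed for both types and are descriptions only. Listings below other cells were frequent in general for gdT_Naive (74.5%), CD8_Effector (60.6%) and CD8_Naive (57.1%). They were rare for NK (11.2%) and ILC1 (7.59%). How far the directions below follow these shares was not tested. Of 86 genes with a value in both gdT_TypeI and NK, 65 were lower in gdT_TypeI and 21 higher, and the median difference was -4.6 points. For ILC1 65 of 76 genes were lower and the median difference was -5.2 points. Against gdT_Naive the order turned, with 55 of 66 higher and a median of 8.7 points, and against CD8_Naive 49 of 71 were higher with a median of 3.7. CD8_Effector, which held only 0.66% of the cells, was lower for 46 of 57 genes with a median difference of 8.8 points.

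The gdT_TypeI genes were then followed among ILC2s, in a separate table of 10 ILC2 subclusters that the choice of genes did not use. Of the 145 genes 86 were on a subcluster list (59.3%, against 48.8% of all genes of the cell type table), and 75 of these (87.2%, against 88.4%) had a listing at least 10 points above other ILC2s. Subcluster 5 listed 43 of the genes, 16 of them (37.2%) with a share above that of other ILC2s, whereas 2.2% of its 1000 listings had a higher share. The 16 were not particular to gdT_TypeI: they were listed for 4 (*Trdc*) to 10 (*Lck*) cell types each. The genes of other T cell types were not compared in this way.

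In subcluster 5, *Cd3e* had a value above 0 in 32.0% of cells against 4.7% of other ILC2s, *Cd28* in 26.8% against 4.7% and *Trdc* in 25.6% against 7.0%. *Ms4a4b* had 49.6% against 10.2%, the widest of the 16 higher genes, *Txk* 42.8% against 17.5%, and *Cxcr3* 25.7% against 2.7%. These genes were on the higher side there. The other 27 had a lower share, among them the receptor gene *Trbc1* at 45.0% against 81.0%, *Gimap7* at 24.6% against 39.8% and *Il2rb* at 37.1% against 39.1%. The part of gamma delta T cells in subcluster 5 was not tested.

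**Figure D4:**
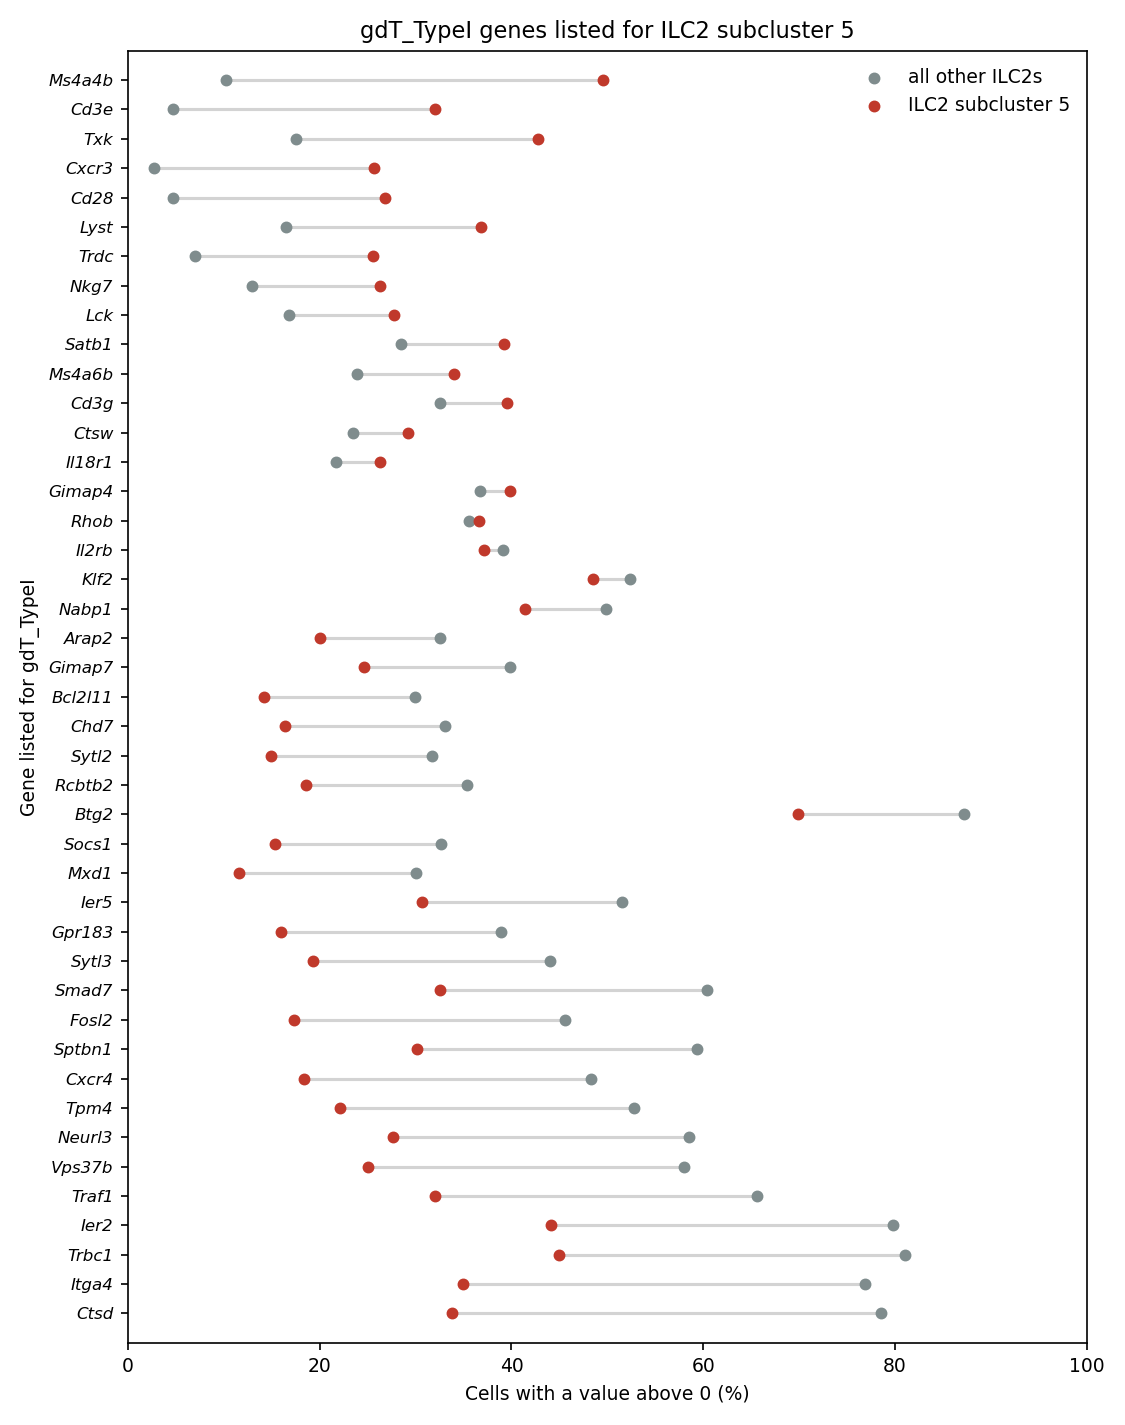
Share of cells with a value above 0 (horizontal axis, %) in ILC2 subcluster 5 (red) and in all other ILC2s (grey) for the 43 gdT_TypeI genes that the subcluster listed, in order of their difference. The 16 upper genes, from *Ms4a4b* to *Rhob*, have a higher share in subcluster 5, and the other 27 have a lower one.

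Subcluster 4 listed 20 of the genes, all with a share above that of other ILC2s, as were 100% of its 802 listings. *Gimap7* had 78.9% there against 35.2% of other ILC2s, *Il2rb* 75.9% against 35.2% and *Gimap4* 71.6% against 33.3%. The markers *Nkg7* (30.5% against 11.7%), *Ms4a4b* (25.6% against 10.3%) and *Ccl5* (62.6% against 41.8%) were higher as well, and *Nkg7*, *Ms4a4b* and *Gimap4* were also higher in subcluster 5. Several genes were not confined to these subclusters. *Nkg7* was highest in subcluster 7, with 40.0% against 13.0%, and *Gimap7* was also higher in subclusters 1, 2, 6 and 8, by 16.0 to 20.7 points. *Cd160*, at 33.7% against 9.6%, went with subcluster 4, while *Tcf7* (51.8% against 18.9%), *Klf2* (87.4% against 43.5%) and *Qrfp* (36.2% against 12.6%) were higher in subcluster 1. *Tcf7* (38.5% against 25.3%) and *Klf2* (74.0% against 52.0%) were also higher in subcluster 7, and *Qrfp* (34.8% against 17.2%) in subcluster 8.

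Positions of the genes were taken from GENCODE annotation of GRCm38, in which 145 of 145 matched 1 gene model, 138 of them protein-coding and 7 T cell receptor segments. Neighbours within 200 kb of each other formed 13 groups that held 32 genes. All members of the CD3, GIMAP and MS4A groups had a higher share in gdT_TypeI than in other cells. So had all members of the pairs *Serpinb6b* with *Serpinb9*, *Sytl3* with *Ezr*, *Ifitm10* with *Ctsd* and *Tpm4* with *Klf2*. Of the 145 genes 71.7% had a higher share. The NK gene complex, the Ly6 group (*Ly6e* lower, *Ly6c1* and *Ly6c2* higher) and the pairs *Trdc* with *Trac* and *Trbc1* with *Trbc2* held members on both sides.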

How the data were processed

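Single-cell RNA sequencing of sorted ILC2-enriched cells gave 4 libraries, 1 per group of organ and treatment. Per the labels and the study's methods, the authors removed doublets and dead cells by flow cytometry, aligned reads with Cell Ranger to mm10, excluded cells with few genes, normalized and log transformed the counts, clustered cells in Seurat and named the clusters. No doublet caller was described, and none was run here.

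The 2 deposited marker tables pool all libraries. The fraction columns deposited by the authors state, to 3 decimals, how many of a cluster's cells, and of all remaining cells, had the gene above 0. They were used here as percentages. The further deposited columns hold the authors' own log2 fold changes and p-values of each cluster against the rest. They were not used. 0 further columns held values per sample.

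The cell type, and with it its members, and the 16 gene lists (337 genes, 6 in more than 1 list) were chosen with earlier results of these data known. Within the cell type, genes were taken by the authors' cluster name alone. Named were the 4 markers, listed genes of the receptor, cytotoxic, NK receptor, type 1, circulation and GIMAP lists, the 15 widest and 5 lowest differences, the 10 largest parts of all cells with a gene, and genes of lists with 5 or fewer listed, 68 genes in all. A few of these are not reported here. Other genes were named after their values were seen. Sizes were fitted by least squares without a constraint on their sum, which was 100.1%. The fit was tested on simulated data for the gdT_TypeI size over 1679 genes, where the largest error was 0.0264 percentage points. Its residual was 0.0275 points, and rounding alone gives an SD of 0.0289. No test between groups was possible, so no p-value is given. Promoter motifs were searched on both strands in RefSeq windows. Python 3.11.15, numpy 2.4.6 and pandas 2.3.3 were used.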

Additional observations from a re-analysis of the deposited data

How the results depend on the processing

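The counts depend on the difference of shares required. At least 10 points above other cells left 40 listed genes, and at least 25 points left 1, for the listed genes and for those with a higher share alike. At 10 points the receptor and CD3 list kept 6 genes, the circulation list 6, the cytotoxic list 4, the type 1 regulators 4, the NK receptors 3, and the alpha beta, interferon and immediate early lists 0 each. The solved size was 11.9% ± 0.178 with genes listed for exactly 2 types and 11.7% in the other fits over all types together. Fits of single pairs of types gave 11.5% to 12.0%. Leaving out ribosomal protein genes changed nothing, because 0 were on any list. With the size of 11.9% the part of cells held by gdT_TypeI was 16.9% for *Gimap7*. No paired analysis was possible because the tables pool all 4 libraries, 1 per group. No replicate could be left out, and the tables give no depth.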

Other observations

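The genes given here were outside the lists. They were picked after their values were seen, except *Bcl2l11*, *Gcnt2* and *Kcnj8*, which the naming rule took for their wide or low differences. Feedback inhibitors of cytokine signalling differed in direction: *Socs3* had a value above 0 in 77.8% of gdT_TypeI cells against 68.0% of other cells, *Socs1* 73.0% against 77.8% and *Socs2* 57.9% against 63.1%. The lymphocyte receptor gene *Slamf6* had 82.1% against 75.7% and *Slamf7* 51.3% against 53.6%. *Bcl2l11*, which encodes the pro-apoptotic protein BIM, had 81.7% against 65.8% and was listed for 6 types, from MMP_LMPP (99.2%) through ILC1 (83.2%) and NK (82.0%) to CD8_Naive (63.6%) and gdT_Naive (57.5%).

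*Lyst*, the lysosomal trafficking regulator, had 80.8% against 71.1%. *Satb1*, a chromatin organizer of T cells, had 93.6% against 81.4%, second to CD8_Naive at 97.4%. *Gpr183*, an oxysterol receptor that guides lymphocyte positioning, had 85.0% against 73.8%, below gdT_TypeIII_ITGAE at 96.9%. Among the genes with the lowest differences were *Gcnt2*, a glycosyltransferase gene (39.5% against 59.3%), and the potassium channel gene *Kcnj8* (39.0% against 56.8%).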
